A study of Mus musculus with 12 samples.

Results

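The H2 genes are the mouse major histocompatibility complex (MHC) genes whose symbols carry the prefix H2- and a hyphen. They were read from the promoter table by that prefix, keeping for each symbol the promoter with the highest mean count scaled to library size (CPM). This gave 44 genes from 64 promoter rows, out of 25124 symbols and 43511 promoter rows in all. The 44 comprised 3 classical class I genes (H2-K1, H2-D1, H2-L), 9 nonclassical class I genes of the Q group, 7 of the T group and 12 of the M group. In the reference annotation, H2-Q5 of the Q group and H2-Bl and H2-T10 of the T group are transcribed pseudogenes. Class II gave 5 antigen-presenting chain genes and 5 peptide-editing chain genes. The classes were assigned by symbol, and 3 further symbols, H2-K2, H2-Ke6 and H2-T-ps, were set apart from them. Their values therefore enter no class I or class II median, although H2-K2 is a transcribed pseudogene like those kept in the Q and T groups. All 44 passed the filter on low counts.

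MHC class I molecules pair a heavy chain with beta-2-microglobulin and show peptides from inside the cell to CD8 T cells and natural killer cells. Nearly every nucleated cell makes the classical forms, whereas nonclassical Q, T and M genes have narrower uses, among them the secreted liver product of H2-Q10. MHC class II molecules show peptides taken up from outside to CD4 T cells. They are made mainly by dendritic cells, B cells and macrophages, which in liver include the Kupffer cells, and not by resting hepatocytes.

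The samples were livers of wild-type male C57Bl/6N mice, 19 to 20 weeks old, on chow, assayed by ATAC-seq, in which a transposase cuts and tags open chromatin. All mice were gavaged for 4 days and then fasted for 12 h. The control group received distilled water, the atorvastatin group 10 mg/kg of this cholesterol-lowering statin, and the PCN group 100 mg/kg of pregnenolone carbonitrile, an agonist of the rodent pregnane X receptor. Each group had 4 libraries, 12 in all, made from nuclei of a frozen piece of whole liver, so all cell types of the organ are mixed. In such bulk samples, fewer cells of a type and less open chromatin per cell cannot be told apart. The labels do not say whether each library is a separate mouse, so p-values measure only the spread between libraries, which may be technical. A pravastatin arm of the same design is not analysed here.

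Promoter counts per library ran from 1679054 to 15336000.5. Control 4 (1679054) and control 3 (2368263) were the shallowest of all libraries. The shallowest treated library, atorvastatin 1, had 4218336.5 counts. Most libraries had a median correlation with the other libraries between 0.931 and 0.971 over promoters, but control 3 was at 0.776 and atorvastatin 3 at 0.789. Over enhancer regions, control 3 was at 0.384 and atorvastatin 3 at 0.0694, and the other libraries were between 0.723 and 0.860. These 2 libraries stood apart, so results are given with and without them. Hepatocyte marker promoters were open: the summed CPM of the 9 hepatocyte genes measured ranged from 177 to 444 in control libraries, from 264 to 488 with atorvastatin and from 336 to 495 with PCN. Per promoter, markers averaged 41.1 CPM for hepatocytes, 7.92 for Kupffer cells and macrophages (10 genes), 9.86 for dendritic cells (9 genes) and 5.80 for B cells (8 genes). None of the markers was at 0 in every library. As a reference for closed chromatin, 1132 olfactory receptor promoters, genes of the nose, had library medians of 1.16 to 6.09 CPM. The highest of these medians was in atorvastatin 3 and the lowest in atorvastatin 2. Markers above the 95th percentile of these promoters in all 12 libraries were 5 of 9 for hepatocytes. They were 0 of 10 for Kupffer cells and macrophages, 1 of 9 for dendritic cells and 0 of 8 for B cells. Of the dendritic cell markers, Zbtb46 averaged 41.15 CPM and the next, Batf3, 11.31 CPM.

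Upstream sequences are shown first. Whether the patterns marked in them relate to accessibility was not tested. RefSeq (GRCm38.p6, the same build as mm10) gave a promoter sequence for 32 of the 44 genes, all on chromosome 17. Printed here, 5′ to 3′, are the 250 bases before the start site of both classical class I genes with a sequence, of the Q genes H2-Q10 and H2-Q6, of the class II chain genes H2-Aa and H2-Eb1, and of H2-M10.6 from the M group. Capitals mark matches, on either strand, to 4 letter patterns: GGGGATTCC (a kappaB site, bound by NF-kappaB), GAANNGAAA (an interferon-stimulated response element), GATTGG (the Y box, the inverted CCAAT of NF-Y) and TGACG (the X2 core, bound by CREB and ATF factors). H2-K1 is at chr17:34000334-34000583 on the minus strand (the start at 34000333, the more downstream of 2), H2-D1 at chr17:35262844-35263093 (plus), H2-Q10 at chr17:35469839-35470088 (plus) and H2-Q6 at chr17:35424600-35424849 (plus). H2-Aa is at chr17:34287824-34288073 (minus), H2-Eb1 at chr17:34305617-34305866 (plus) and H2-M10.6 at chr17:36811925-36812174 (plus).
H2-K1: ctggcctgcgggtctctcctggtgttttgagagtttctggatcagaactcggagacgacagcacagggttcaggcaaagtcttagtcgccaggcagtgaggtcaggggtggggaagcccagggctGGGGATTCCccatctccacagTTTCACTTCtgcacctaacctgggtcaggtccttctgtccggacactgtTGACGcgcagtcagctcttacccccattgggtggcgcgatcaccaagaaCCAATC
H2-D1: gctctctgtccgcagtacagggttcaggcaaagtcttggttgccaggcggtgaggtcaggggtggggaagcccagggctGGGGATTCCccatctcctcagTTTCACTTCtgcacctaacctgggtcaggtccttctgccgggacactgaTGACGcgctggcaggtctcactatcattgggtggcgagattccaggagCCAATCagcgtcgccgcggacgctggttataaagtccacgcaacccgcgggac
H2-Q10: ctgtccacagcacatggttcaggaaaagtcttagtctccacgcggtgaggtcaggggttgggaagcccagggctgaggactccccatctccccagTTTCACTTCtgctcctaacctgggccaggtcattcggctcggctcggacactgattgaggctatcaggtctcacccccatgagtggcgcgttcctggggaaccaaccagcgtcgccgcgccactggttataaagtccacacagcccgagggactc
H2-Q6: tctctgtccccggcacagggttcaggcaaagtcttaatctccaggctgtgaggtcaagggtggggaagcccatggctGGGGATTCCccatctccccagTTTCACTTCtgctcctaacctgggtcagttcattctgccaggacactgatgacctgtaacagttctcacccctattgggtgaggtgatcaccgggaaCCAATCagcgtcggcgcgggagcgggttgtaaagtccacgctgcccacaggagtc
H2-Aa: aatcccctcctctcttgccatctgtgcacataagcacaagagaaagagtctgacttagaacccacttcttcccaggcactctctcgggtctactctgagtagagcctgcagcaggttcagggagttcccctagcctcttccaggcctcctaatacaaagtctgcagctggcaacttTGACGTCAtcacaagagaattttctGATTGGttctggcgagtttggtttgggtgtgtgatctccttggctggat
H2-Eb1: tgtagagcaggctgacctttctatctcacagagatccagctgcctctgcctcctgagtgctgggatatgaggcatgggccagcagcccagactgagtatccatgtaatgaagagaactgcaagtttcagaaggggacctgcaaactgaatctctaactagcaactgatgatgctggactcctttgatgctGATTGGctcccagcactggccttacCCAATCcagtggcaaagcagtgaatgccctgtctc
H2-M10.6: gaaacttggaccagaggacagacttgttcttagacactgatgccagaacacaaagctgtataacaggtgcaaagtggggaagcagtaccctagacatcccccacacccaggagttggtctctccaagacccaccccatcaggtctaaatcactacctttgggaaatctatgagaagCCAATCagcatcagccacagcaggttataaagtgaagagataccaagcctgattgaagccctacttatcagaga

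In H2-K1 and H2-D1 the kappaB and interferon patterns lie close together, the first at 125 to 117 bases before the H2-K1 start and at 171 to 163 bases before the H2-D1 start. The interferon pattern follows at 104 to 96 and at 150 to 142 bases. H2-Q10 keeps the interferon pattern (155 to 147 bases) and has no match to the other 3. The kappaB pattern was in both classical class I sequences, in 2 of 5 Q sequences (H2-Q6 and H2-Q7) and in no other H2 sequence, against 0.213% of all 32851 RefSeq promoters searched over the same length. The interferon pattern was in both classical class I sequences, 4 of 5 Q sequences and 2 of 12 M sequences (H2-M3 and H2-M2), and in 6.31% of all promoters. The Y box was in both classical class I sequences, 3 of 3 class II antigen-presenting, 5 of 5 peptide-editing, 3 of 5 Q, 2 of 3 T, 9 of 12 M and 2 of 2 other H2 sequences, and in 14.6% of all promoters. For H2-DMa, which has 2 starts, this match was at the second. The X2 core was in both classical class I sequences, H2-Aa, 2 of 5 Q, 1 of 3 T and 6 of 12 M sequences, against 17.8% overall; in H2-Aa its matches on the 2 strands overlap. H2-Aa and H2-Eb1 share neither the kappaB nor the interferon pattern with the class I genes. A match describes letters in this window and is not a measured binding site. The kappaB search took only the exact letters GGGGATTCC, so its shares are not those of kappaB sites in general. H2 genes are counted once, with a match at any of their starts, whereas the overall shares count each promoter.

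**Figure D1:**
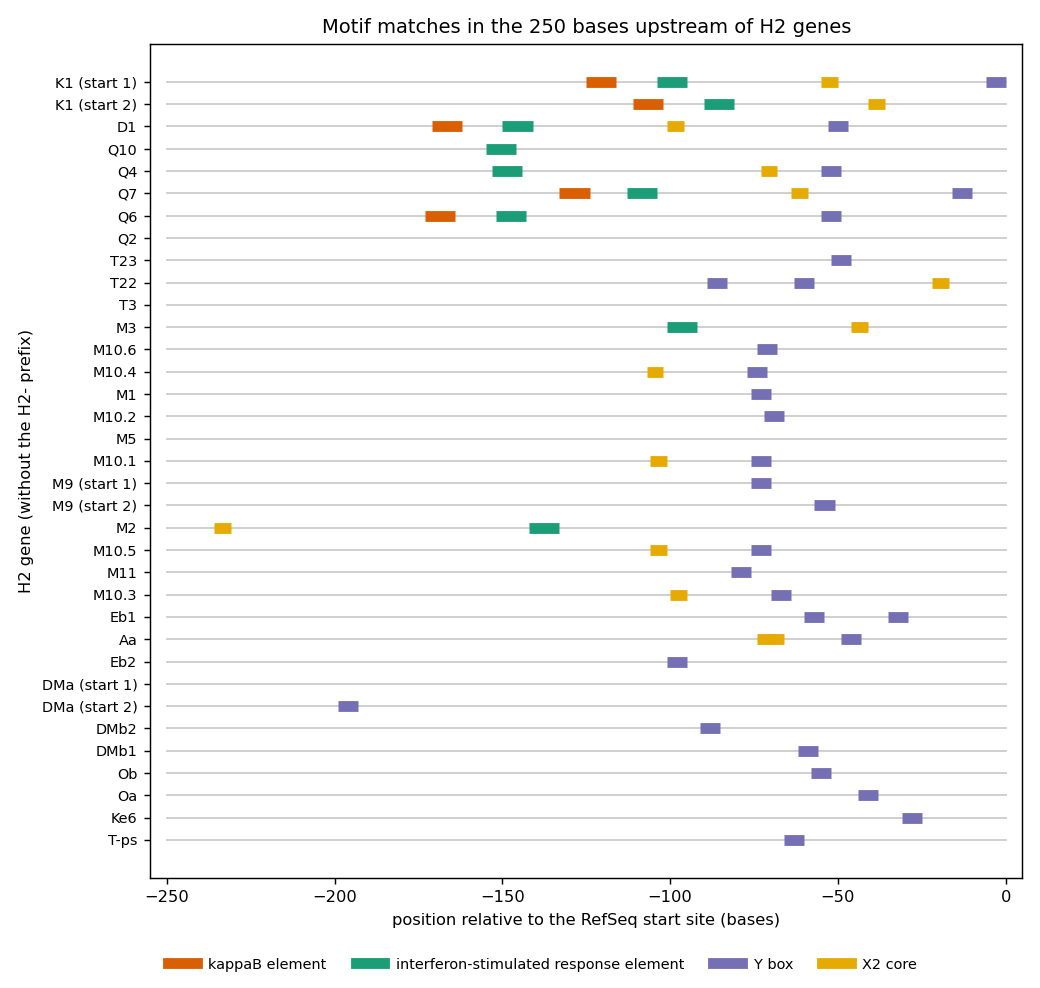
Matches to the 4 patterns (coloured bars) in the 250 bases before each RefSeq start site, with position in bases on the horizontal axis and 1 line per H2 gene and start. The kappaB and interferon bars sit together in K1, D1, Q6 and Q7, while class II and most M genes have a Y box only, or with an X2 core.

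Levels below are CPM scaled by TMM, a correction for library composition. The length of the promoter window is not given in the sources used here, so a level is per window and not per base. Some H2 genes share a window. The pairs were H2-D1 and H2-L, H2-Q6 and H2-Q8, H2-Q7 and H2-Q9, and H2-T22 and H2-T9. In each, count differences summed over the libraries came to no more than 2% of the total. The 44 genes thus give 40 separate windows, and such pairs are counted once. H2 genes are close copies of each other, and how reads that fit several copies were counted is not given in the sources used here, so levels of single class I genes are uncertain.

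Among the 6 class I and class II groups, the classical class I promoters were the most open in every library. Their median over windows (H2-K1 and H2-D1) ranged from 30.7 to 70.0 CPM, which was 8.45 to 60.6 times the olfactory receptor median of the same library. The Q median ranged from 16.8 to 33.5 CPM and the T median from 11.0 to 21.5 CPM, with Q above T in 11 of 12 libraries. The antigen-presenting class II median ranged from 3.52 to 15.6 CPM and the peptide-editing median from 2.79 to 16.7 CPM. The first of these was above the second in 10 libraries, and both stayed below Q and T in all 12. The M median was the lowest, 2.65 to 14.1 CPM, and lay 1.43 to 2.69 times above the olfactory receptor median. It was below the antigen-presenting class II median in 12 of 12 libraries and below the peptide-editing median in 11. The order of all 6 medians held in 9 of 12 libraries, the exceptions being control 3, atorvastatin 3 and PCN 4. Over the 12 libraries the ranges of neighbouring classes overlapped.

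**Figure D2:**
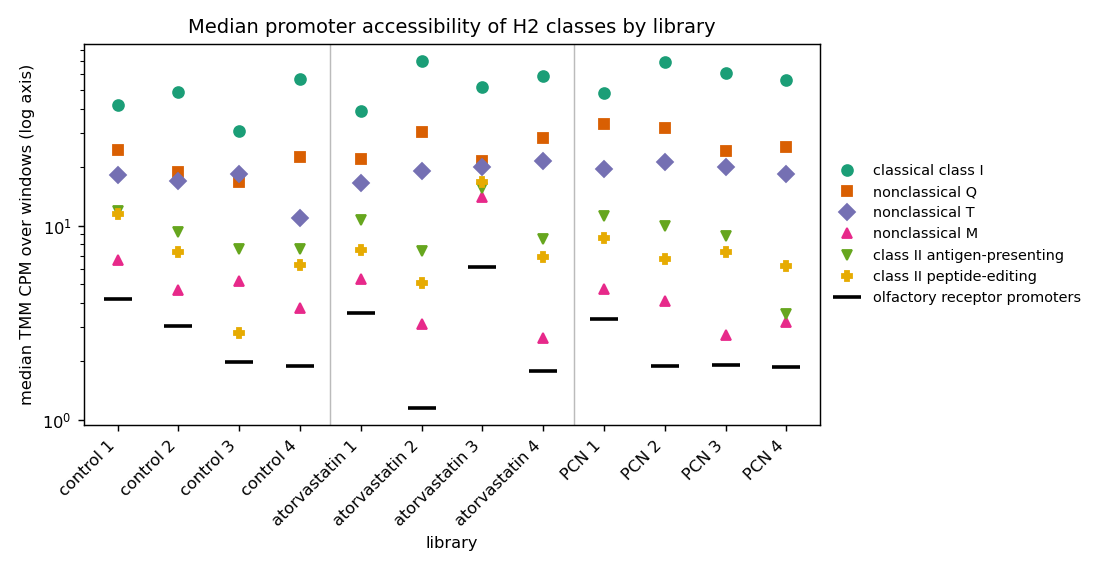
Median TMM CPM (log axis) over the windows of each H2 class in each of the 12 libraries, with the median of 1132 olfactory receptor promoters as a black bar. Classical class I is on top in every library (30.7 to 70.0 CPM) and the M group lies just above the black bars (1.43 to 2.69 times).

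Measured against the 95th percentile of the olfactory receptor promoters in the same library, 11 of 40 windows were above it in all 12 libraries and 23 in at least 9. Both classical class I windows, 3 of 7 Q, 3 of 6 T and none of 12 M windows were above it in all 12. In the M group, 11 of 12 windows were above it in 6 libraries or fewer. H2-M3 was the exception, above it in 11.

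H2-K1 and H2-D1 encode the classical heavy chains of this strain. H2-K1 measured 44.2, 53.7, 32.3 and 57.8 CPM in control libraries 1 to 4 (mean 47.0 ± 11.3, SD, n = 4). It measured 40.9, 73.0, 60.7 and 56.4 with atorvastatin (57.8 ± 13.2) and 52.4, 75.2, 59.9 and 61.9 with PCN (62.3 ± 9.49). H2-D1 measured 39.6, 43.2, 29.1 and 55.3 CPM in controls (41.8 ± 10.8), 36.5, 67.1, 42.3 and 61.8 with atorvastatin (51.9 ± 14.8) and 43.5, 63.4, 62.3 and 50.1 with PCN (54.8 ± 9.66). Control 3 was the lowest library for both genes, and the 3 groups overlapped. H2-K1 was above H2-D1 in 10 of 12 libraries and stood at the 92.1st percentile of all symbols by mean CPM. H2-L, a class I gene of other mouse haplotypes, had the H2-D1 window and nearly the same values.

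H2-Q10, which encodes the class I protein secreted by hepatocytes, was the most open of the Q group and lay above the next, H2-Q4, in all 12 libraries. Its values were 39.1, 54.7, 39.9 and 54.0 CPM in controls (46.9 ± 8.58), 38.9, 80.7, 40.9 and 64.9 with atorvastatin (56.4 ± 20.1) and 51.5, 84.7, 57.0 and 76.6 with PCN (67.4 ± 15.8). It did not differ in order from the classical genes: it was above H2-K1 in 6 of 12 libraries and above H2-D1 in 8. H2-Q4 measured 25.5, 26.4, 35.5 and 22.6 CPM in controls, 31.4, 30.4, 21.6 and 29.8 with atorvastatin and 33.7, 37.5, 25.5 and 30.4 with PCN. H2-Q7 and H2-Q9, which encode the Qa-2 antigen, shared values of 30.4, 26.9, 0 and 27.7 CPM in controls, 31.9, 30.5, 32.2 and 28.9 with atorvastatin and 33.5, 31.6, 24.2 and 27.3 with PCN. The 0 was in control 3. H2-Q6 and H2-Q8 measured 24.6, 18.9, 17.9 and 22.6 CPM in controls (21.0 ± 3.11), 22.1, 35.3, 29.7 and 28.2 with atorvastatin (28.8 ± 5.4) and 37.8, 37.5, 24.7 and 25.2 with PCN (31.3 ± 7.33). Here all 4 PCN libraries were above all 4 controls, by a margin of 24.7 against 24.6 at the nearest. The remaining Q genes H2-Q5, H2-Q1 and H2-Q2 averaged 9.28 to 11.6 CPM over the 12 libraries.

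In the T group, H2-T23 encodes Qa-1, the ligand of the natural killer cell receptor NKG2A. It measured 24.5, 25.3, 21.1 and 32.7 CPM in controls, 17.7, 22.7, 18.7 and 29.8 with atorvastatin and 22.1, 29.7, 18.9 and 21.1 with PCN. H2-T22, recognised by a subset of gamma delta T cells, shared its window with H2-T9 and measured 21.6, 22.98, 23.9 and 19.5 CPM in controls, 18.4, 25.4, 21.3 and 26.2 with atorvastatin and 22.7, 27.2, 24.5 and 20.3 with PCN. Its RefSeq start lies 219 bases from that of Gm6034 on the other strand. H2-T24 measured 17.4, 16.5, 21.1 and 10.1 CPM in controls, 16.6, 16.5, 24.6 and 25.3 with atorvastatin and 23.5, 21.3, 23.1 and 20.1 with PCN. H2-T23 and H2-T22 did not differ in order, each being higher in 6 libraries, and H2-Bl and H2-T10 averaged 15.8 and 15.7 CPM over the 12 libraries. H2-T3, which encodes the thymus leukemia antigen of intestine and thymus, averaged 5.50 CPM and was above the closed reference in 5 libraries.

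H2-M3 presents formylated bacterial peptides and was the only M gene away from the closed level. It measured 26.4, 24.8, 32.3 and 19.5 CPM in controls, 24.3, 21.7, 14.8 and 29.7 with atorvastatin and 28.9, 27.6, 25.6 and 26.5 with PCN. The other 11 M genes averaged 4.43 to 7.01 CPM. H2-M10.6, of the M10 family known from sensory neurons of the vomeronasal organ, measured 9.10, 3.88, 5.98 and 7.54 CPM in controls, 7.08, 3.32, 32.6 and 2.94 with atorvastatin and 4.33, 2.95, 2.69 and 1.66 with PCN. H2-M10.4 measured 5.10, 5.59, 1.99 and 6.91 CPM in controls, 5.31, 1.73, 22.2 and 2.94 with atorvastatin and 6.72, 4.21, 5.05 and 3.93 with PCN. The single high library for both genes was atorvastatin 3, which also had the highest olfactory receptor median. H2-M1 measured 8.17, 3.42, 21.5 and 3.77 CPM in controls, 3.54, 2.02, 12.4 and 1.47 with atorvastatin and 4.33, 4.63, 1.68 and 2.28 with PCN, with control 3 and atorvastatin 3 as the high libraries.

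The class II chain genes of this strain form the I-A molecule from H2-Aa and H2-Ab1. H2-Ab1, the beta chain, was the most open of the class. It measured 17.01, 17.7, 9.57 and 10.7 CPM in controls (13.7 ± 4.21), 21.2, 16.8, 17.4 and 21.9 with atorvastatin (19.3 ± 2.61) and 18.9, 21.3, 19.8 and 23.2 with PCN (20.8 ± 1.88). All PCN libraries were above all controls. H2-Aa, the alpha chain, measured 11.8, 9.32, 2.39 and 3.14 CPM in controls, 10.62, 7.37, 13.8 and 8.48 with atorvastatin and 11.2, 9.90, 8.86 and 3.52 with PCN. H2-Ab1 was above H2-Aa in all 12 libraries.

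H2-Eb1, the beta chain of the I-E molecule, measured 12.8, 12.9, 18.7 and 8.80 CPM in controls, 18.4, 10.1, 15.6 and 12.3 with atorvastatin and 13.1, 13.9, 12.7 and 5.79 with PCN. Its partner alpha chain gene is the pseudogene H2-Ea-ps in this strain, where the I-E molecule is not made. H2-Ea-ps measured 7.32, 5.28, 7.58 and 1.26 CPM in controls, 5.97, 2.75, 20.8 and 5.38 with atorvastatin and 4.67, 5.48, 3.14 and 2.07 with PCN, and was above the closed reference in 4 libraries. H2-Eb2 was the least open of all 40 windows, at 7.66, 3.11, 0.399 and 7.54 CPM in controls, 3.10, 1.73, 5.98 and 4.24 with atorvastatin and 3.87, 2.95, 3.14 and 2.07 with PCN. H2-Eb1 was above H2-Eb2 in all 12 libraries. The E group thus ranged from a window near the middle of all symbols (H2-Eb1, percentile 50.3) to 1 near the closed level (H2-Eb2, percentile 15.3).

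The peptide-editing chains load class II molecules (H2-DMa with H2-DMb1 or H2-DMb2) or dampen that loading (H2-Oa with H2-Ob). H2-DMa measured 58.7, 69.4, 44.3 and 95.5 CPM in controls, 57.5, 78.0, 43.8 and 92.1 with atorvastatin and 56.0, 56.4, 92.7 and 82.4 with PCN. This promoter starts 225 bases from that of Brd2, a broadly expressed chromatin reader transcribed from the other strand, and the counts of the 2 cannot be told apart. The other H2-DMa promoter row averaged 16.3 CPM, 4.22 times less than the 68.9 CPM of the chosen row, with values of 17.7, 15.0, 7.98 and 18.9 in controls, 16.2, 13.8, 16.4 and 21.8 with atorvastatin and 17.14, 16.95, 16.49 and 17.9 with PCN. The choice of the highest row therefore sets the H2-DMa level.

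H2-DMb1 measured 11.5, 5.59, 0 and 6.28 CPM in controls, 5.31, 5.06, 18.9 and 5.63 with atorvastatin and 9.11, 6.74, 7.07 and 6.21 with PCN. H2-DMb2 measured 12.3, 10.9, 2.79 and 2.51 CPM in controls, 5.75, 4.05, 12.0 and 9.87 with atorvastatin and 8.65, 6.95, 14.6 and 12.0 with PCN. In the chosen rows both beta chain genes were near 8 CPM on average (7.28 and 8.52), and the groups overlapped. Another H2-DMb2 promoter row measured 8.38, 7.84, 12.8 and 6.28 CPM in controls. It measured 4.42, 3.90, 12.6 and 5.30 with atorvastatin and 6.83, 4.21, 7.35 and 5.38 with PCN. Here PCN values lay mostly below the controls, whereas the chosen row averaged 7.11 CPM in controls and 10.55 with PCN. The remaining row was nearly the same as this other row. Class counts and medians below use the chosen row. H2-Oa measured 8.85, 3.73, 0 and 1.26 CPM in controls, 7.52, 3.61, 16.7 and 4.16 with atorvastatin and 8.31, 5.27, 7.29 and 4.97 with PCN. H2-Ob measured 9.95, 7.30, 5.18 and 6.28 CPM in controls, 7.96, 6.65, 6.21 and 6.85 with atorvastatin and 6.38, 5.05, 7.18 and 4.35 with PCN. A count of 0 in control 3, as for H2-Oa and H2-DMb1, is 0 of 2368263 counts and allows up to 3 counts.

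Of the 3 remaining symbols, H2-K2 is a transcribed pseudogene beside H2-K1 and was the most open H2 window. It measured 45.7, 63.0, 42.7 and 64.1 CPM in controls (53.9 ± 11.3), 61.1, 101, 67.7 and 85.3 with atorvastatin (78.7 ± 17.9) and 68.1, 93.1, 88.9 and 99.9 with PCN (87.5 ± 13.7). All PCN libraries were above all controls, and H2-K2 was above H2-K1 in 12 of 12 libraries. H2-Ke6 encodes the hydroxysteroid dehydrogenase HSD17B8, which presents no antigen, and averaged 48.6 CPM. H2-T-ps averaged 10.0 CPM.

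**Figure D3:**
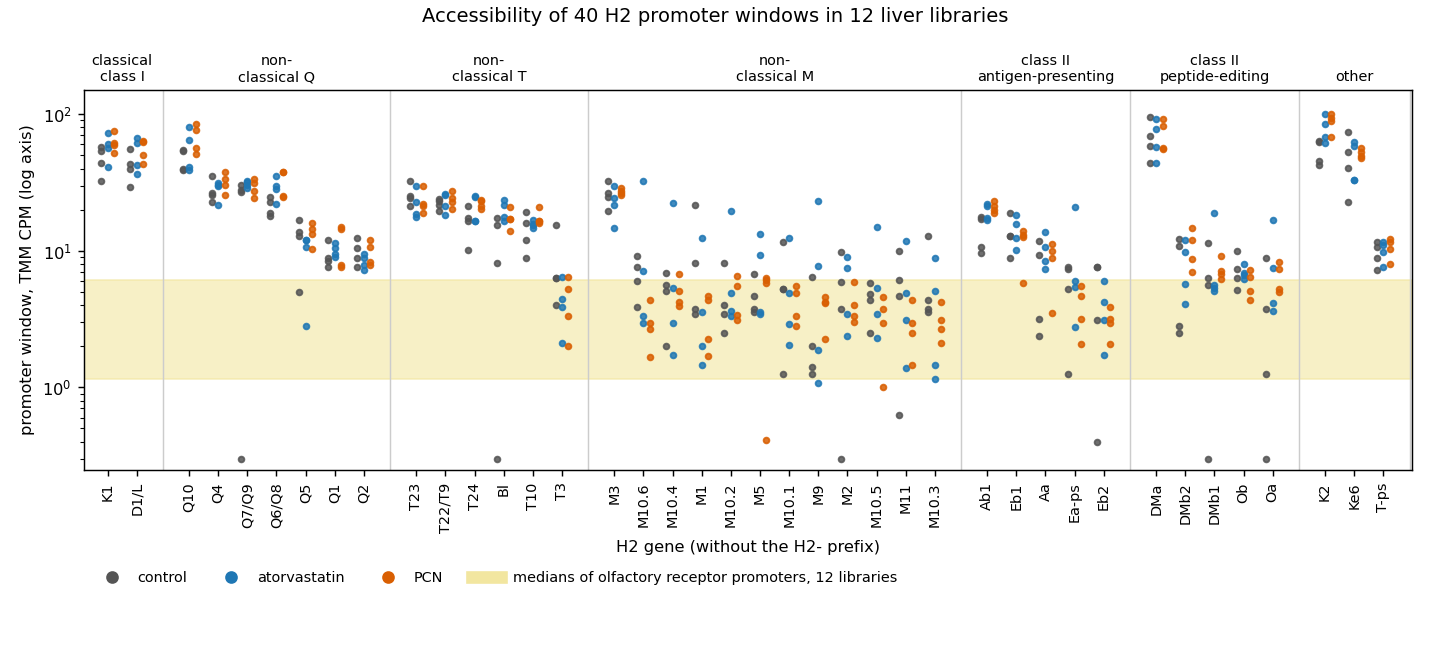
TMM CPM (log axis) of the 40 H2 windows in the 12 libraries, 1 point per library, coloured by group. Values under 0.3 CPM are drawn at 0.3, and the band spans the library medians of olfactory receptor promoters (1.16 to 6.09 CPM). Most values of the M windows other than H2-M3 and of H2-Eb2 lie in the band, and the classical class I windows, H2-Q10, H2-K2, H2-DMa and H2-Ke6 lie above 20 CPM in every library.

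The 3 groups were compared with edgeR's quasi-likelihood test over all 41908 promoters tested, with Benjamini-Hochberg adjustment and a threshold of 0.05. No H2 promoter passed in any comparison. Of all promoters, 0% passed for PCN against control, 0% for atorvastatin against control and 0% for PCN against atorvastatin. The smallest adjusted p of an H2 promoter was 0.918, 1 and 1 in the same order, with edgeR. With DESeq2 and with limma-voom no H2 promoter passed either.

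At an unadjusted p under 0.05, 5 of 44 H2 genes (11.4%, 4 of 40 windows) were found for PCN against control, where 3.75% of all promoters were. They were H2-K2, H2-Q6 with H2-Q8, and H2-Ab1 on the higher side and H2-M1 on the lower side. This count of 5 was 1 without PCN 2, 3 without PCN 1, PCN 3 or PCN 4, 7 without atorvastatin 3, and 1 when scaled by library totals. For atorvastatin against control it was 1 of 44 (H2-K2) against 1.93% of all, and for PCN against atorvastatin 1 of 44 (H2-M10.6) against 0.73%. Without control 3 and atorvastatin 3, the adjusted test found 0.0143% of promoters for PCN against control, 0.00954% for atorvastatin against control and 0% for PCN against atorvastatin, none of them H2. The unadjusted counts of H2 genes were then 5 (H2-K2, H2-Q6 with H2-Q8, H2-T24 and H2-M10.6), 3 (H2-Q6 with H2-Q8 and H2-M1) and 0, against 4.51%, 3.81% and 0.41% of all promoters. H2-Ab1 was no longer among them, and H2-M1 moved from one comparison with control to the other.

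In 4 H2 genes, H2-K2, H2-Ab1, and H2-Q6 with H2-Q8, all PCN libraries lay above all controls, and in none below. Without control 3 and atorvastatin 3 it was 5, with H2-T24 added, where 750 symbols of 25124 separated upward and 898 downward. With all libraries, among all 25124 symbols, 1.93% showed such a separation upward and 1.7% downward. For atorvastatin against control no H2 gene separated, where 0.561% of symbols did upward and 0.521% downward. For PCN against atorvastatin no H2 gene separated either, with 0.306% upward and 0.255% downward among all. Without control 3 and atorvastatin 3, 1 H2 gene, H2-Q4, separated upward for atorvastatin against control. Of 25124 symbols, 859 did so and 1079 separated downward, so this count of H2 genes is no result about them. For PCN against atorvastatin it was 1 H2 gene, H2-DMb1, upward, where 211 of 25124 symbols separated upward and 152 downward.

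H2-K2 had the largest upward difference of these genes, 0.70 ± 0.26 on the log2 scale (SE, PCN against control, unadjusted p = 0.012, adjusted p = 0.918 by edgeR). It was 0.62 ± 0.27 without the 2 libraries, and 0.55 ± 0.26 for atorvastatin against control. H2-Q6 differed by 0.57 ± 0.22 with PCN and by 0.46 ± 0.22 with atorvastatin, and by 0.51 and 0.39 without the 2 libraries. H2-Ab1 differed by 0.54 ± 0.25 with PCN and by 0.44 ± 0.25 with atorvastatin, and by 0.38 and 0.31 without them. Both drug comparisons share the control libraries, so their values are set side by side and are not independent.

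The classical genes had smaller differences, also above 0, with intervals that include 0. H2-K1 differed by 0.41 ± 0.25 with PCN (95% interval -0.10 to 0.92) and by 0.30 ± 0.25 with atorvastatin (-0.21 to 0.81), which turned to -0.07 without the 2 libraries under loess offsets, a scaling that follows abundance. H2-D1 differed by 0.40 ± 0.25 with PCN (-0.12 to 0.92) and by 0.33 ± 0.25 with atorvastatin (-0.19 to 0.85). Every PCN library was above the control mean for both genes. H2-Q10 differed by 0.52 ± 0.27 with PCN (-0.03 to 1.08) and by 0.27 ± 0.27 with atorvastatin, and H2-T24 by 0.41 ± 0.24 and 0.33 ± 0.24. None of these passed the adjusted test.

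By class, 2 of 2 classical class I windows lay above 0 for PCN against control (median 0.40), as did 6 of 7 Q windows (median 0.25), 4 of 6 T windows (median 0.19) and 6 of 10 class II windows (median 0.18; the antigen-presenting chains -0.23, the peptide-editing chains 0.27). In the M group 3 of 12 were above 0, with a median of -0.43. Over all symbols tested, 47.8% were above 0, with a median of -0.02. For atorvastatin against control, 2 of 2 classical class I, 5 of 7 Q, 4 of 6 T, 8 of 10 class II and 7 of 12 M windows were above 0, with medians of 0.32, 0.11, 0.09, 0.25 and 0.32, against 56.8% of all symbols (median 0.05).

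These medians moved with the 2 libraries. Without control 3 and atorvastatin 3, class II windows above 0 were 3 of 10 in both comparisons (medians -0.05 with PCN and -0.10 with atorvastatin), and M windows above 0 were 2 of 12 and 1 of 12. Leaving out atorvastatin 3 alone gave an M median of -0.46 for atorvastatin against control, and leaving out control 3 alone gave a class II median of -0.04 for PCN against control. The classical class I median was 0.28 with PCN and 0.22 with atorvastatin. Loess offsets on the same 10 libraries reduced it to 0.08 and 0.01 and gave M medians of 0.05 and -0.10. Under that scaling 6 of 7 Q windows lay above 0 in both comparisons, with medians of 0.27 and 0.15, and class II medians were 0.12 and 0.20. Scaling by library totals shifted the median of all symbols for PCN against control to -0.14, with 35.9% above 0, and gave 19 of 40 H2 windows above 0.

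**Figure D4:**
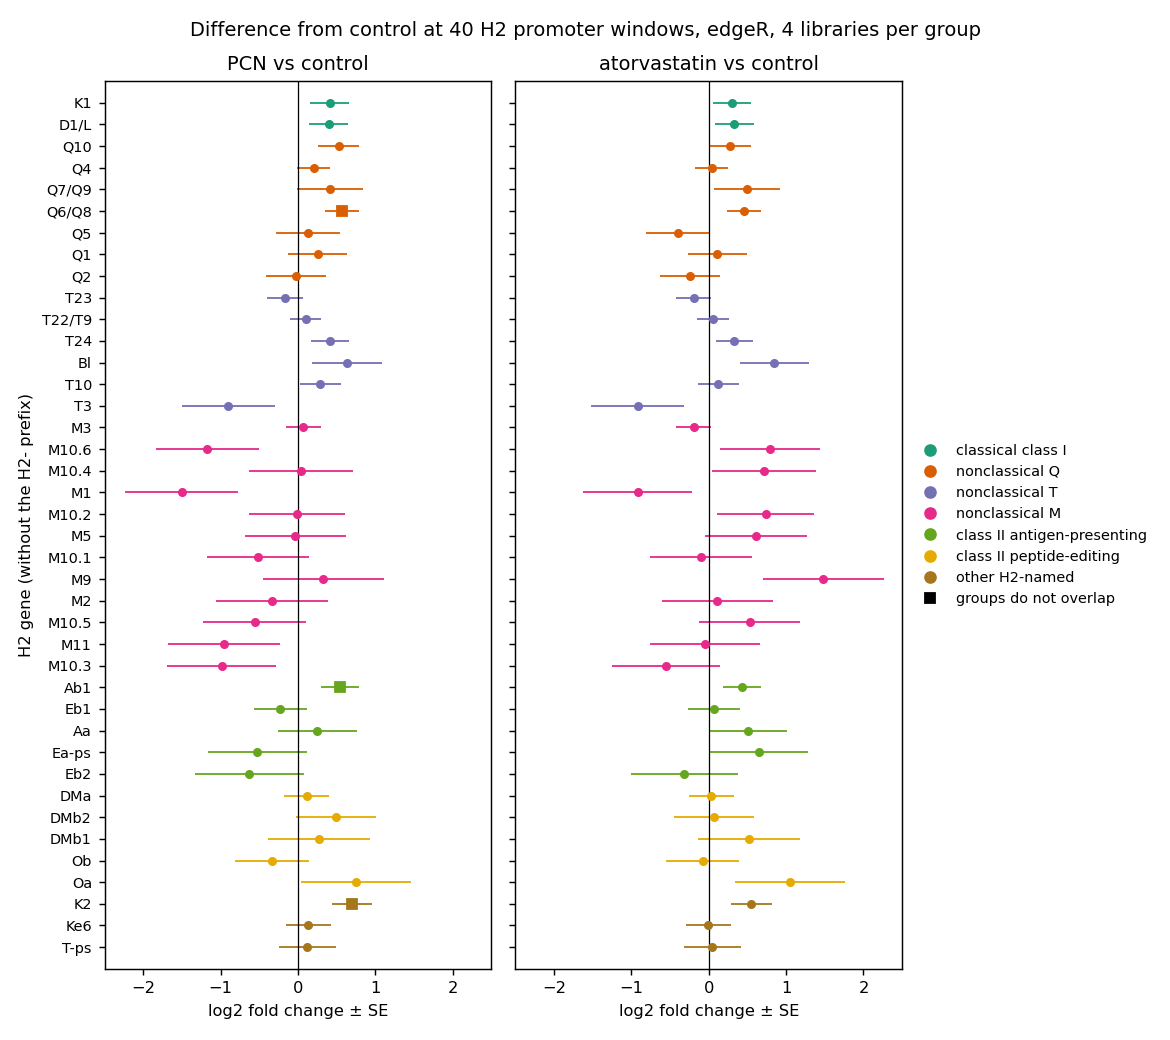
Log2 fold change ± SE (edgeR, 4 libraries per group) at the 40 H2 windows for PCN and atorvastatin against control, coloured by class. Squares mark windows whose groups do not overlap, which are K2, Q6/Q8 and Ab1 with PCN. The M windows have the widest bars and fall on both sides of 0.

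H2-M1 had the largest downward difference with PCN, -1.51 ± 0.72 (unadjusted p = 0.049, adjusted p = 0.918 by edgeR). Without control 3 and atorvastatin 3 it was -0.72. H2-M10.6 differed by -1.962 ± 0.664 between PCN and atorvastatin (unadjusted p = 0.0069, adjusted p = 1 by edgeR), and by -0.54 without the 2 libraries. Against control, H2-M10.6 differed by -1.17 ± 0.67 with PCN and by -1.20 without them. Control 3 had the highest H2-M1 value and atorvastatin 3 the highest H2-M10.6 value of all libraries, and atorvastatin 3 also had the highest closed-promoter median.

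Genes that act with the H2 molecules were read from 4 lists. None of their promoters passed the adjusted test, whose background was 0% as given above. Of 14 class I loading and processing genes, 13 lay above 0 for PCN against control (median 0.20) and 8 for atorvastatin against control (median 0.06), with none at an unadjusted p under 0.05. Under loess offsets without the 2 libraries 6 of 14 lay above 0 with PCN (median -0.03). B2m, the light chain of all class I molecules, ranged from 17.6 to 46.1 CPM in controls, from 15.9 to 45.1 with atorvastatin and from 35.4 to 45.9 with PCN. The low libraries were control 3 and atorvastatin 3. Tap1, the peptide transporter subunit, and Psmb9, an immunoproteasome subunit, share a divergent promoter and averaged 43.5 and 42.9 CPM. Psmb8, a further immunoproteasome subunit, averaged 21.9 CPM. Tap2, the partner of Tap1, differed by 0.49 ± 0.26 with PCN, Tapbpl, a peptide editor, by 0.46 ± 0.28 and Psmb10 by 0.32 ± 0.26. Without the 2 libraries these were 0.23, 0.24 and 0.15, and Psmb10 was -0.03 with loess offsets as well.

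Of 5 class II chain and processing genes, 2 lay above 0 with PCN (median -0.01) and 1 with atorvastatin (median -0.19). Cd74, the invariant chain that guides class II molecules, measured 14.2, 9.16, 30.7 and 11.9 CPM in controls, 8.85, 8.53, 9.93 and 11.5 with atorvastatin and 13.4, 7.79, 12.9 and 9.10 with PCN. Its differences were -0.75 ± 0.37 with atorvastatin and -0.59 with PCN, and -0.29 with atorvastatin without the 2 libraries, where the high control 3 is left out. With loess offsets as well, the PCN difference was 0.07. Ifi30, the thiol reductase, averaged 24.4 CPM and Ctsl, a cathepsin, 30.2 CPM. They differed by 0.35 ± 0.26 and 0.20 ± 0.21 between PCN and atorvastatin.

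Of 9 transcription regulators, 8 lay above 0 with PCN (median 0.18) and 6 with atorvastatin (median 0.06). Under loess offsets without the 2 libraries these were 5 and 3. Rfx5, a subunit of the X-box factor, measured 35.5, 51.9, 36.3 and 42.7 CPM in controls and 49.3, 59.8, 64.9 and 62.1 with PCN. It differed by 0.50 ± 0.23 (unadjusted p = 0.041, adjusted p = 0.918 by edgeR), and by 0.45 without the 2 libraries. It was the 1 gene of 9 in its list under an unadjusted 0.05, where 3.75% of all promoters were. Creb1 differed by 0.41 ± 0.30 with PCN. The class transactivators were far less open: Nlrc5, for class I, averaged 11.0 CPM and Ciita, for class II, 8.16 CPM, with Ciita at 23.7 CPM in atorvastatin 3 and 3.14 to 12.1 elsewhere. Ciita differed by 0.76 ± 0.54 with atorvastatin and by -0.03 without the 2 libraries.

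Of 14 interferon signalling genes, 11 lay above 0 with PCN (median 0.16) and 10 with atorvastatin (median 0.06). Under loess offsets without the 2 libraries these were 6 and 9. Stat2 measured 51.4, 62.3, 37.5 and 65.4 CPM in controls and 61.7, 98.6, 77.5 and 84.4 with PCN. It differed by 0.57 ± 0.27 (unadjusted p = 0.046, adjusted p = 0.918 by edgeR), and by 0.44 without the 2 libraries, where its unadjusted p was 0.0927. With all libraries it was the 1 gene of 14 in its list under an unadjusted 0.05, where 3.75% of all promoters were. Irf9, its partner, differed by 0.39 ± 0.22 with PCN, and Jak1, a receptor kinase, by 0.41 ± 0.23 with atorvastatin. Irf1, an interferon-induced transcription factor, averaged 50.7 CPM and was above the closed reference in all 12 libraries. Of the marker lists, 7 of 9 hepatocyte markers lay above 0 with PCN (median 0.39) and 7 of 7 stellate cell markers lay below (median -0.59). Among immune cell markers, 8 of 10 Kupffer cell, 6 of 9 dendritic cell, 4 of 8 B cell and 8 of 10 T and natural killer cell markers lay below 0. With loess offsets and without the 2 libraries, 2 of 10 Kupffer cell and 7 of 7 stellate cell markers lay below 0. The other marker lists are not given under that scaling. Over all symbols, 47.8% lay above 0 for PCN against control with all libraries and 47.7% under that scaling. The part of cell composition in the H2 values was not tested.

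**Figure D5:**
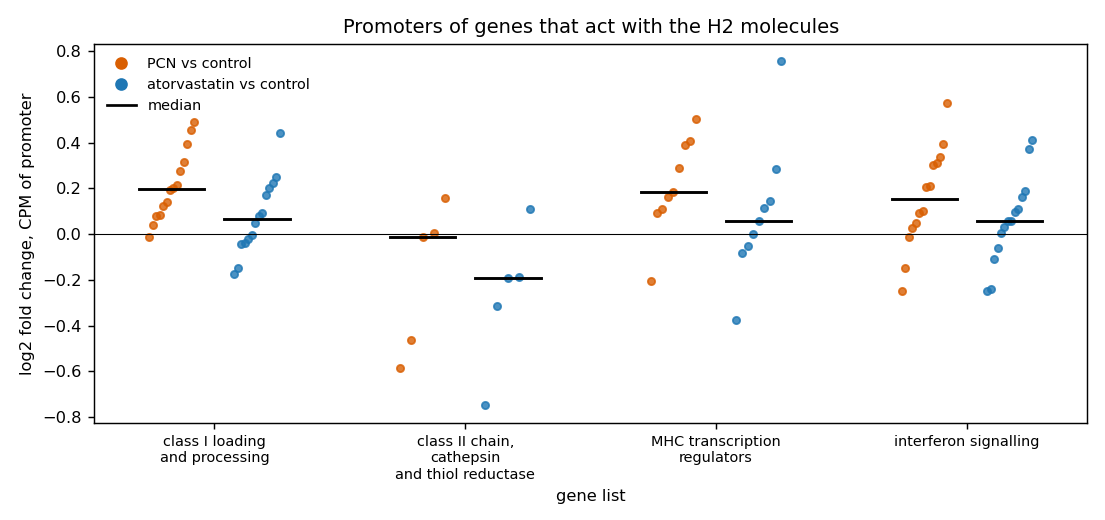
Log2 fold change in promoter CPM of the genes of 4 lists for PCN and atorvastatin against control, 1 point per gene, with the median as a bar. Class I loading genes lie mostly above 0 with PCN (13 of 14), fewer under loess offsets without the 2 libraries (6 of 14), and the class II chain list does not (2 of 5).

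Away from promoters, the authors' enhancer table held 122 regions within 10000 bases of an H2 start site, nearest to 18 H2 genes. Distances were taken only from the 32 genes with a RefSeq promoter sequence. Regions near other H2 genes, among them H2-Ab1 and H2-K2, could therefore be missed. Many overlapped, so that the 122 regions formed 41 sites of up to 10 regions each. The most accessible site lay inside the H2-DMa gene at chr17:34135440-34135577, 9672 bases from the H2-DMb2 start, and ranged from 3.24 to 25.1 CPM with a median of 18.3. A site near H2-T23 at chr17:36035137-36035282, 2436 bases from its start, ranged from 0 to 13.5 CPM with a median of 10.2. Near H2-D1, a site at chr17:35258341-35258472, 4622 bases away, ranged from 4.03 to 10.3 CPM. Inside H2-Eb1, a site at chr17:34309799-34309944, 3932 bases from the start, ranged from 1.08 to 7.99 CPM. The other classes had lower sites: the highest near an M gene averaged 1.30 CPM and the single Q site 0.901 CPM. This Q site was at 9.99 CPM in atorvastatin 3 and at most 0.5154 CPM in any other library.

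Of the 122 regions, 84 passed the filter on low counts and entered the test over 182115 regions. None of the 84 passed at an adjusted p under 0.05, or at an unadjusted p under 0.05, in any of the 3 comparisons. Among all regions the adjusted test called 0% in each comparison (edgeR). The unadjusted share was 1.93% for PCN against control, 2.39% for atorvastatin against control and 0.465% for PCN against atorvastatin. Without control 3 and atorvastatin 3, 87 regions near H2 genes were tested and again none passed at either threshold. Of all 192874 regions, 14892, 10643 and 3728 were then under an unadjusted 0.05, in the same order. The median difference of the near regions moved from 0.09 to -0.11 with PCN and from 0.21 to -0.05 with atorvastatin, both against control. At 2 of the 12 region widths, 1 library was the highest in every region. The 17 regions of 182 bases were highest in atorvastatin 3 in 17 of 17 cases, with a median of 9.99 CPM there against 0.375 in the other libraries, and the 2 regions of 192 bases were highest in control 3. At the other widths the highest library varied: of the 18 regions of 82 bases, for example, control 4 was most often the highest, in 5. All 5 sites near M genes and the single Q site were of the 182-base kind.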

How the data were processed

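ATAC-seq of 12 mouse liver libraries (control, atorvastatin and PCN, 4 each) was used as 2 tables that the authors deposited, 1 of promoters and 1 of enhancer regions. The values are expected counts as the authors deposited them, in steps of 0.5, neither normalized nor filtered as far as the values show, and were rounded to whole numbers before testing. The submitters' processing notes list mm10 as build and, as tools, HOMER 4.10, bedtools 2.30.0, STAR 2.7.9a and Trimmomatic. Their roles, the promoter window, any shift of reads for the transposase and the treatment of reads that map to several places are not given in the sources used here.

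From these counts, CPM and tests were computed with edgeR 4.0.16 (R 4.3.3): TMM, filterByExpr (count 10, total 15), quasi-likelihood fits of group over all 12 libraries, and Benjamini-Hochberg adjustment over each whole table, threshold 0.05. Fold changes are those of each fit. A prior count of 2 entered only the loess offsets and the correlations between same-numbered libraries. The scripts were tested on simulated data. DESeq2 1.42.0, limma-voom (limma 3.58.1), other scalings and filters, a replicate block and leaving out each library were the alternatives. Fits without control 3 and atorvastatin 3 were added after the data were seen. Depth runs from 1679054 to 15336000.5 promoter counts per library, so a window at 5 CPM rests on few counts in the shallow libraries. Counts are reads without molecular identifiers, so a limit for a count of 0 covers counting error only.

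Named with values in every library are all classical class I and class II genes, the 3 Q, T and M genes of highest mean CPM and any with an unadjusted p under 0.05, and of each pathway list the genes of smallest p with a fixed set. That rule was written per kilobase, which could not be applied because no window length is given, so CPM per window was used. A gene of that set is not reported here. The member genes and the lists were chosen with earlier results of these data known. Sequences are from RefSeq (GRCm38.p6).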

Additional observations from a re-analysis of the deposited data

Results flagged for a closer look

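In 120 groups of 4 libraries (40 windows in 3 groups), 11 had a highest or lowest library that stood off from the other 3 by more than Dixon's 95% critical value. Chance flags about 1 in 20 groups. Of the 11 such values, 5 were in atorvastatin 3, 2 in control 3, 2 in PCN 4, 1 in control 1 and 1 in PCN 3.

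Atorvastatin 3 was the highest of its group for H2-M10.6 (32.6 CPM, next 7.08), H2-M10.2 (19.5, next 4.87) and H2-DMb1 (18.9, next 5.63), and the lowest for H2-Q4 (21.6, next 29.8) and H2-Q5 (2.82 CPM). Control 3 was the highest of the controls for H2-M10.3 (12.8 CPM, next 4.34) and the lowest for H2-Q7 (0, next 26.9). Control 1 was the highest for H2-M9 (6.46 CPM, next 1.99). In the PCN group, PCN 4 was the lowest for H2-Eb1 (5.79 CPM, next 12.7) and H2-M5 (0.414, next 5.83), and PCN 3 the highest for H2-T10 (21.0 CPM, next 16.6).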

How the results depend on the processing

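No H2 promoter passed in any comparison under any other processing listed at the outset (DESeq2 size factors, library totals, loess offsets, other filters, DESeq2, limma-voom, 2 groups only, the replicate block, each library left out). The count of called promoters over the whole table was 0 in each comparison and stayed 0, except for 1 promoter with DESeq2 for atorvastatin against control. Leaving out 1 library at a time gave 0 H2 promoters and 0 H2-near enhancer regions throughout. With the alternatives chosen after seeing the data, PCN against control gave 6 promoters without control 3 and atorvastatin 3, 2 with loess offsets as well and 124 with the replicate block as well. Atorvastatin against control gave 4, 6 and 57. In these fits the 1 H2 promoter called was H2-K2, with the replicate block, for PCN against control (0.60, adjusted p = 0.0336 by edgeR, against 0.918 with all libraries and no block). The cause was not tested.

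The replicate block on all 12 libraries called 0 promoters. Same-numbered libraries deviated together for numbers 1 and 4, with correlations of 0.227 to 0.5 over the 3 comparisons. For numbers 2 and 3 the correlations were -0.416 to 0.0954, and number 3 includes control 3 and atorvastatin 3. Whether the numbers pair the samples cannot be told from these values.

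Signs turned without control 3 and atorvastatin 3: to -0.026 for Ciita (atorvastatin against control), and with loess offsets as well to -0.069 for H2-K1 (atorvastatin against control), -0.032 for Psmb10 and 0.071 for Cd74 (both PCN against control). Summing all promoter rows of a symbol moved H2-DMa from 68.9 to 85.3 CPM, H2-DMb2 from 8.52 to 22.7 and H2-M5 from 5.60 to 16.4. It moved H2-K1 from 55.7 to 111.3 CPM, H2-Q6 from 27.1 to 81.2 and H2-T22 from 22.8 to 114.1. In these last genes the rows were nearly equal, so that a sum adds nearly the same counts again. Levels and their order thus depend on the use of 1 row per symbol. Depth limits the windows near the closed level, among them 11 of 12 M windows, where a value rests on few counts.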
